A study of Homo sapiens with 12 samples.

Results

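GAS6-AS1, its sense gene GAS6 and the 3 TAM receptor genes AXL, TYRO3 and MERTK are described here in RNA-seq libraries of A549 cells, a human lung adenocarcinoma line. These 5 rows were selected on measured values out of 25365 genes in the table: GAS6-AS1 was chosen by its higher level after pyridostatin, and the other 4 because they are its sense gene and the receptors of that gene's product. The rise of GAS6-AS1 with pyridostatin is therefore given as a description with no test. All 5 genes were listed, and 4 of the 5, with the exception of MERTK, were among 11881 genes that reached 1 FPKM on average over the 12 libraries. FPKM is a count of fragments scaled by transcript length and by library depth.

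The 12 libraries fall into 4 groups of 3 biological replicates: wild-type A549 cells with vehicle, wild-type cells with pyridostatin, PARP3-/- A549 cells with vehicle, and PARP3-/- cells with pyridostatin. Vehicle was DMSO, and pyridostatin, a small molecule that binds and stabilizes G quadruplex (G4) DNA, was given at 1 µM for 24 h. The PARP3-/- cells carry a deletion made with Cas9 and were cloned by serial dilution, so genotype and clone cannot be told apart. The study compared transcription between genotypes and treatments. The PARP3 transcript itself was not lower in the libraries labelled PARP3-/-: it averaged 3.73 ± 0.29 FPKM (SD, n = 3) in wild-type cells with vehicle, 4.41 ± 0.45 in the vehicle libraries labelled PARP3-/-, 3.79 ± 0.24 in wild-type cells with pyridostatin and 4.58 ± 0.25 in the pyridostatin libraries labelled PARP3-/-. The difference averaged over both treatments was 0.21 on the log2(FPKM + 1) scale (limma, adjusted p = 0.0154), upward, so the transcript level does not check the label, and genotype differences are given for the libraries labelled PARP3-/-. The RNA of a gene with an internal deletion can still be counted.

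The steps between low FPKM values put the depth of the libraries at about 21700000 to 30800000 reads, and at the median depth 1 FPKM stood for about 25.2 reads per kilobase. Epithelial and A549 markers were present in all 12 libraries, with the keratins KRT8, KRT18 and KRT7 at means of 3036, 2653 and 1677 FPKM. Surfactant genes of alveolar type 2 cells were at or near 0, with SFTPB listed at 0 in every library.

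GAS6 is a secreted vitamin K-dependent protein whose amino-terminal Gla domain binds phosphatidylserine on dying cells, and whose carboxy-terminal part binds the TAM receptors TYRO3, AXL and MERTK. These receptor tyrosine kinases signal to survival pathways, dampen innate immune responses and mediate the uptake of apoptotic cells. AXL is widely expressed in lung carcinoma cells and is known for its links with a mesenchymal state and with drug resistance, whereas MERTK is best known from macrophages. GAS6-AS1 is a long noncoding RNA read from the opposite strand of GAS6.

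Both the antisense RNA and the receptor genes have sequence features that bear on what the counts can hold. In the GENCODE release 29 annotation, GAS6-AS1 had 5 exons and 7169 bases, and GAS6 had 15 exons and 2490 bases. GAS6-AS1 began 4928 bases beyond the end of GAS6 and ran into it on the other strand. Its exons shared 333 bases with exons of the coding GAS6 transcript, which is 4.65% of the antisense transcript and 13.4% of the sense transcript. This overlap lay in antisense exons 3, 4 and 5, which covered 95, 115 and 123 bases of GAS6 exons 8, 6 and 5. Over exons of any annotated GAS6 transcript 421 bases were shared, with all 88 bases of antisense exon 2 among them. Antisense exons 3 and 4 are shown because each lies partly over a GAS6 exon and is short enough to print whole. They are written 5′ to 3′ on the plus strand of GRCh38, and capitals mark the bases that lie over a GAS6 exon.
GAS6-AS1 exon 3, chr13:113834578-113834764, plus strand: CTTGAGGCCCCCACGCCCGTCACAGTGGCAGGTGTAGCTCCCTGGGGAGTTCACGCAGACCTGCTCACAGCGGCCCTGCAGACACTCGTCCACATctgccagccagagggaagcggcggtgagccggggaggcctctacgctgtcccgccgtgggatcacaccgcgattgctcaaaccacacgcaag
GAS6-AS1 exon 4, chr13:113838077-113838247, plus strand: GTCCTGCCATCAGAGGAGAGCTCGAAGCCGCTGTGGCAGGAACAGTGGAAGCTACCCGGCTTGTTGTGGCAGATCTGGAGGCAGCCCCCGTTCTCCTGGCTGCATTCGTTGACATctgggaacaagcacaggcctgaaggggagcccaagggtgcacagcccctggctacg
In both exons the capitals form 1 block at the 5′ end, and the rest of the exon lies over GAS6 intron. The libraries were made with a kit that keeps strand, but whether reads were assigned to genes by strand is not given in the sources used here. Reads of GAS6 and GAS6-AS1 from the shared bases, 333 for the coding transcript and 421 for any, therefore cannot be told apart from these values. The transcript models used for the deposited table may differ from those of GENCODE release 29.

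**Figure D1:**
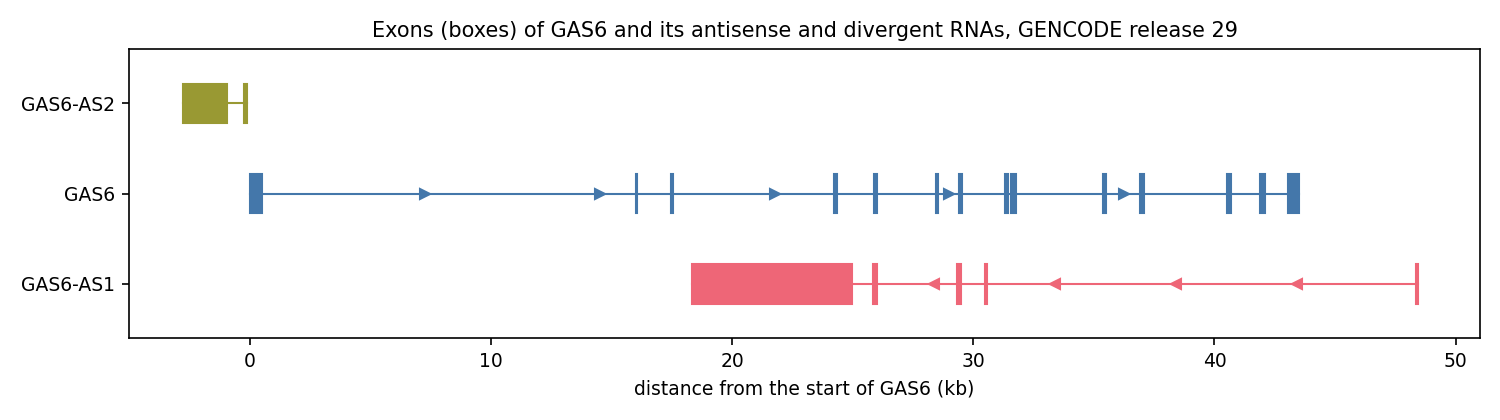
Exons (boxes, to scale) of GAS6-AS1, GAS6 and GAS6-AS2 by distance from the start of GAS6 in kb, with arrowheads for the direction of transcription. The last 3 of the 5 GAS6-AS1 exons cross exons of the coding GAS6 transcript, its first exon lies 4928 bases beyond the end of GAS6, and GAS6-AS2 starts 101 bases from the GAS6 start in the other direction.

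Because pyridostatin binds G4 DNA, the promoters of the members were searched for a G4-type motif, 4 runs of at least 3 G joined by loops of 1 to 7 bases of any kind, on both strands of the RefSeq windows from 250 bases before to 50 bases after each start (GRCh38.p14). Of 35116 such windows, 25% held the motif on at least 1 strand. The windows of GAS6 and MERTK held it, 1 of 2 TYRO3 windows held it and neither of 2 AXL windows did, and GAS6-AS1 was not in the table of windows. The stretches are shown because they are the bases in which the motif was found, written 5′ to 3′ with each run of G in capitals.
GAS6, chr13:113864131-113864169, plus strand (the strand opposite to GAS6): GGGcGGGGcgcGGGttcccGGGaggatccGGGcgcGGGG
TYRO3, chr15:41559145-41559187, minus strand (the strand opposite to TYRO3): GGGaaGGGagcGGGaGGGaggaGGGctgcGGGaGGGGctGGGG
MERTK, chr2:111898419-111898478, minus strand (the strand opposite to MERTK): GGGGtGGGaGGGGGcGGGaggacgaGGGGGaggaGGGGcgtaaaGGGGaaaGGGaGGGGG
MERTK, chr2:111898551-111898574, minus strand (the strand opposite to MERTK): GGGctggaaGGGGcGGGccGGGGG
The GAS6 stretch ends 54 bases before the GAS6 start and also lies in the window of GAS6-AS2. These are matches of letters and not measured structures. The windows with a match were rich in G and C, at 69.0% for GAS6, 78.3% for MERTK and 80.3% for the TYRO3 window, and the AXL windows without one had 66% and 53.7%.

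GAS6-AS1 was low in vehicle and higher in every pyridostatin library. In wild-type cells with vehicle its level was 1.28, 1.83 and 1.59 FPKM in replicates 1 to 3, and with pyridostatin it was 4.44, 3.52 and 4.72 FPKM. In the libraries labelled PARP3-/- it was 1.92, 1.81 and 1.74 FPKM with vehicle and 4.27, 4.64 and 4.29 FPKM with pyridostatin. The lowest pyridostatin library (3.52 FPKM) was above the highest vehicle library (1.92 FPKM), so the 6 treated libraries did not overlap the 6 vehicle libraries, as also held for 6.66% of all genes tested. The means were 1.57 ± 0.27 against 4.23 ± 0.63 FPKM in wild-type cells (SD, n = 3), a ratio of 2.70, and 1.82 ± 0.09 against 4.40 ± 0.21 FPKM in the libraries labelled PARP3-/-, a ratio of 2.41. On the log2(FPKM + 1) scale, which understates changes of low genes, the differences were 1.02 and 0.94, and they were 1.38 and 1.23 with a pseudocount of 0.1 in place of 1. By upward difference, GAS6-AS1 ranked 69 and 64 among the 11881 genes tested in wild-type and PARP3-/- cells. The call rule of an adjusted p under 0.05 took 4.17% of all genes in wild-type cells, 5.56% in the libraries labelled PARP3-/- and 13.9% averaged over both genotypes.

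**Figure D2:**
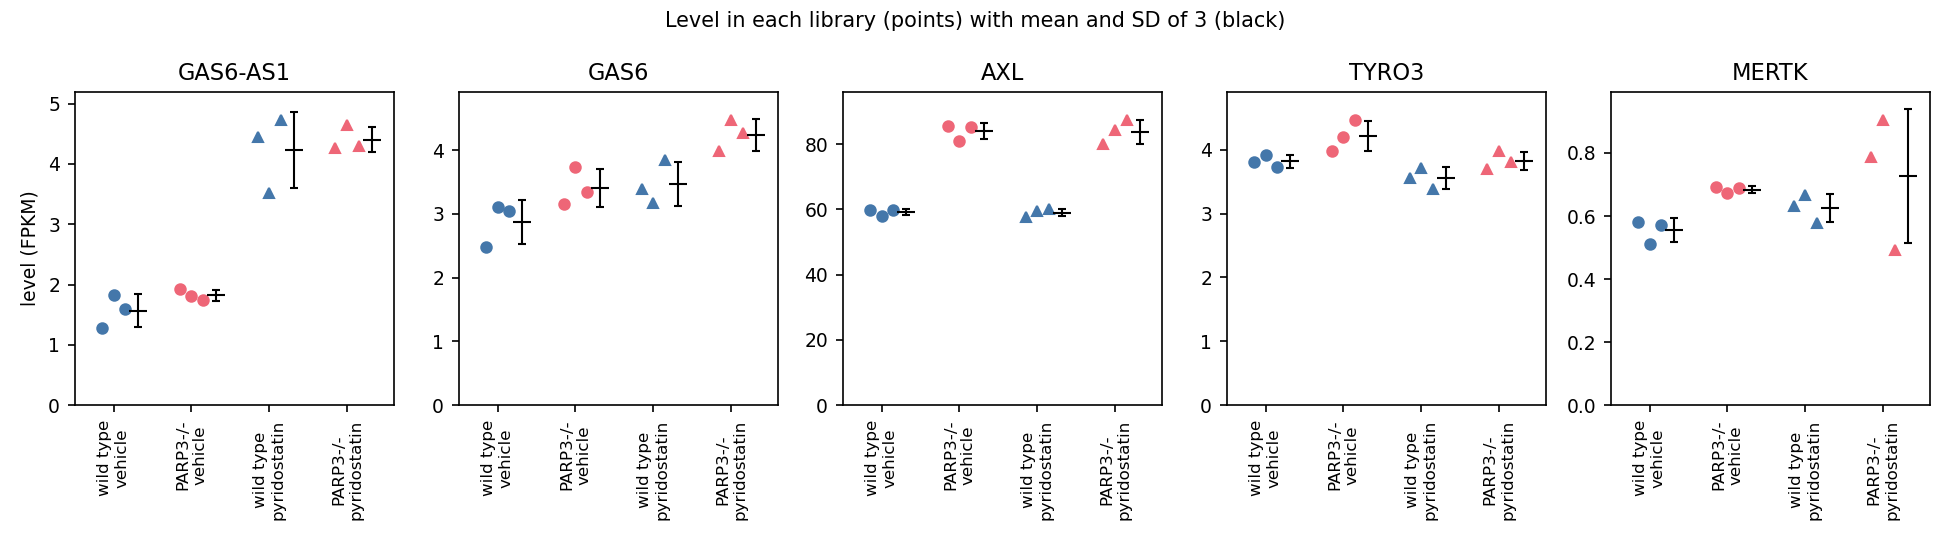
Level in FPKM of the 5 members in each of the 12 libraries (points, circles for vehicle and triangles for pyridostatin, blue for wild type and red for PARP3-/-), with the mean and SD of 3 libraries in black and each vertical axis starting at 0. GAS6-AS1 is higher in all 6 pyridostatin libraries, AXL is higher in all 6 libraries labelled PARP3-/-, and MERTK is widely spread in the pyridostatin libraries labelled PARP3-/-.

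Between genotypes GAS6-AS1 did not pass the test. The difference was 0.14 with vehicle (95% interval -0.07 to 0.35, limma, adjusted p = 0.451) and 0.05 with pyridostatin (-0.16 to 0.27, adjusted p = 0.801) on the log2(FPKM + 1) scale, in comparisons that share libraries with the contrast by which the gene was chosen. Without the second wild-type pyridostatin library, which had the lowest treated level, the latter value was -0.05. The rule called 9.41% of all genes between genotypes with vehicle and 10.9% with pyridostatin.

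GAS6, the ligand gene, was on average about 1.2 times higher with pyridostatin and in the libraries labelled PARP3-/-, differences near the edge of what the test could call. Its level was 2.48, 3.10 and 3.04 FPKM in wild-type cells with vehicle and 3.38, 3.17 and 3.84 FPKM with pyridostatin. In the libraries labelled PARP3-/- it was 3.15, 3.73 and 3.33 FPKM with vehicle and 3.98, 4.46 and 4.26 FPKM with pyridostatin. The pyridostatin libraries labelled PARP3-/- were above all others and the wild-type vehicle libraries were below all others, while the remaining groups overlapped. The 3 libraries of 1 group did not overlap the 3 of the other in any of the 4 pairwise comparisons. That was common, holding for 24.2% of genes between genotypes with vehicle, 35.2% between genotypes with pyridostatin, 23.1% for pyridostatin in wild-type cells and 32.3% for pyridostatin in the libraries labelled PARP3-/-.

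None of the 4 pairwise differences of GAS6 passed the test across all genes. They were 0.19 between genotypes with vehicle (limma, adjusted p = 0.216) and 0.23 with pyridostatin (0.106), and 0.21 for pyridostatin in wild-type cells (0.193) and 0.25 in the libraries labelled PARP3-/- (0.114). Averaged over the other factor, GAS6 was higher in the libraries labelled PARP3-/- by 0.21 ± 0.06 (SE, adjusted p = 0.0282) and higher with pyridostatin by 0.23 ± 0.06 (adjusted p = 0.0259) on the log2(FPKM + 1) scale. These averaged tests called 19.1% and 13.9% of all genes. The genotype call was lost on leaving out any 1 of 7 of the 12 libraries (adjusted p up to 0.0722) and the pyridostatin call on leaving out any 1 of 6 (up to 0.0677), and both were lost with quantile normalization (0.104 and 0.0866). The pyridostatin difference did not depend detectably on genotype, with an interaction of 0.04 (95% interval -0.21 to 0.30, adjusted p = 0.999). Exons of GAS6-AS1, which was chosen by its rise with pyridostatin, cover 13.4% of the coding GAS6 transcript. Since reads may not have been assigned by strand, the pyridostatin tests of GAS6 may not be independent of that choice. The part of antisense reads in the GAS6 values was not tested.

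The antisense RNA moved from below its sense gene to about its level. GAS6-AS1 over GAS6 in FPKM was 0.543 ± 0.040 in wild-type cells with vehicle and 0.539 ± 0.065 in the vehicle libraries labelled PARP3-/- (SD, n = 3). With pyridostatin the ratio was 1.22 ± 0.10 in wild-type cells and 1.04 ± 0.03 in the libraries labelled PARP3-/-, above 1 in all 6 treated libraries and at most 0.611 in the vehicle libraries. In the pyridostatin libraries labelled PARP3-/- and in wild-type cells with vehicle, replicate 1 was lowest and replicate 2 highest for both genes. In wild-type cells with pyridostatin replicate 2 was lowest and replicate 3 highest for both. The vehicle libraries labelled PARP3-/- differed: replicate 1 was highest for GAS6-AS1 (1.92 FPKM) and lowest for GAS6 (3.15 FPKM). The next annotated genes on either side were all but silent: GAS6-AS2, the divergent RNA, averaged between 0.038 and 0.111 FPKM in the 4 groups and TMEM255B between 0.119 and 0.305. LINC00552 and LINC00452 were listed at 0 in every library.

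The other antisense RNAs were read against the share of all genes called. Of 735 rows named as antisense RNAs of another gene, 121 were tested, and 98 of these had a tested sense gene. GAS6-AS1 is left out of the counts that follow, since it was chosen by this difference. Of the other 120 tested, 1.67% were called in wild-type cells, against 4.17% of all genes: pyridostatin raised BAIAP2-AS1 in wild-type cells (0.24 on the log2 scale, limma, adjusted p = 0.0236) and lowered TMPO-AS1 (-0.35, adjusted p = 0.0260). In the libraries labelled PARP3-/- 0 of the other 120 were called in the limma model, against 5.56% of all genes, and 9 had an unadjusted p under 0.05. Averaged over genotypes 2 rose and 5 fell (5.83%, against 13.9% of all genes), and among these INTS6-AS1 (-0.38, adjusted p = 0.0244), TOPORS-AS1 (-0.31, 0.0264), VIM-AS1 (-0.26, 0.0269) and TMPO-AS1 (-0.24, 0.0111) fell. Their sense genes INTS6 (0.11), TOPORS (0.02), VIM (-0.05) and TMPO (-0.15) did not pass the test. The calls of BAIAP2-AS1 and of TMPO-AS1 in wild-type cells, and the averaged calls of INTS6-AS1, TOPORS-AS1 and VIM-AS1, were each lost on leaving out 1 of several libraries (adjusted p up to 0.124, 0.142, 0.0603, 0.0660 and 0.0612 over all alternatives). The lower shares called did not go with smaller differences. Over the 121 antisense rows, GAS6-AS1 included, the median absolute log2 difference was 0.099 in wild-type cells, against 0.078 for all genes. It was 0.0740 against 0.0738 in the libraries labelled PARP3-/- and 0.079 against 0.068 averaged over genotypes. GAS6-AS1 had the largest upward difference of the 121 antisense rows in both genotypes.

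**Figure D3:**
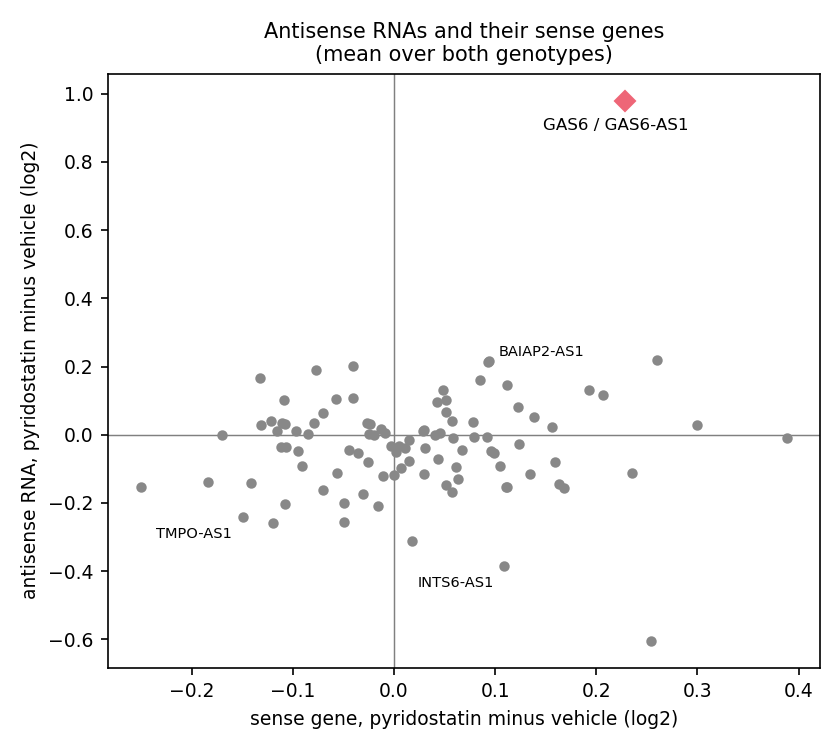
Difference with pyridostatin, averaged over both genotypes on the log2(FPKM + 1) scale, of 98 antisense RNAs (vertical axis) against that of their sense genes (horizontal axis), with 1 point per pair. GAS6-AS1 (red diamond) lies at 0.98 for the antisense RNA and 0.23 for GAS6, above every other pair.

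AXL, the receptor with the highest affinity for GAS6, was higher in the libraries labelled PARP3-/- and did not pass the test for pyridostatin. Its level was 59.7, 58.0 and 59.7 FPKM in wild-type cells with vehicle and 57.7, 59.4 and 60.0 FPKM with pyridostatin. In the libraries labelled PARP3-/- it was 85.6, 81.0 and 85.1 FPKM with vehicle and 79.9, 84.2 and 87.2 FPKM with pyridostatin. Every library labelled PARP3-/- was above every wild-type library. A lack of overlap between the 6 libraries of each genotype, in either direction, held for 9.67% of all genes tested. The ratio of means was 1.42 with either treatment, and the difference on the log2(FPKM + 1) scale was 0.50 with vehicle (95% interval 0.41 to 0.58, limma, adjusted p = 1.58e-05) and 0.50 with pyridostatin (0.41 to 0.58, adjusted p = 1.53e-05). For pyridostatin the differences were -0.003 in both genotypes, with 95% intervals of -0.089 to 0.084 (limma, adjusted p = 0.983 in wild-type cells and 0.986 in the libraries labelled PARP3-/-). The 95% interval of the interaction was -0.12 to 0.12.

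Markers moved with genotype beside AXL, in the averaged genotype test that called 19.1% of all genes. Of 10 epithelial and A549 markers, 7 were lower in the libraries labelled PARP3-/- in the averaged test and none higher, including the adhesion genes CDH1 (-0.47, limma, adjusted p = 2.29e-05) and EPCAM (-0.50, 6.96e-05), and the summed level of the 10 was 13060 to 14900 FPKM in wild-type libraries and 11310 to 12480 in the others. Both tested genes of a 5-gene macrophage list, CD68 (0.40, limma, adjusted p = 8.38e-05) and CD14 (0.50, 0.000612), were higher, with sums of 16.9 to 20.1 FPKM in wild-type libraries and 23.6 to 27.3 in the others. The defining leukocyte gene PTPRC averaged 0.0013 FPKM, CSF1R 0.0013 and CD163 was listed at 0. Of 4 fibroblast genes COL1A1 was higher (0.41, adjusted p = 0.000665), at a mean of 1.08 FPKM, and COL1A2, COL3A1 and PDGFRB were at or below 0.0182 on average. The part of these shifts in the AXL difference was not tested. In bulk RNA, a change in the share of cells that express a gene and a change in its RNA per cell cannot be told apart.

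TYRO3, the receptor best known from the nervous system, was the next highest receptor. Its level was 3.81, 3.92 and 3.73 FPKM in wild-type cells with vehicle and 3.56, 3.72 and 3.38 FPKM with pyridostatin. In the libraries labelled PARP3-/- it was 3.99, 4.21 and 4.46 FPKM with vehicle and 3.7, 3.98 and 3.81 FPKM with pyridostatin. Pyridostatin libraries lay below vehicle libraries of the same genotype without overlap, by 0.08 in wild-type cells (limma, adjusted p = 0.385) and 0.11 in the libraries labelled PARP3-/- (0.245) on the log2(FPKM + 1) scale, and neither passed the test. Such a lack of overlap, in either direction, held for 23.1% of all genes in wild-type cells and 32.3% in the libraries labelled PARP3-/-. Averaged differences were -0.10 for pyridostatin (95% interval -0.17 to -0.02, adjusted p = 0.0948) and 0.10 for genotype (0.02 to 0.18, adjusted p = 0.0759). The first passed with a shift of every library to the same median (0.0384) or quantile normalization (0.0422), and the second without the second wild-type vehicle library (0.0461).

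MERTK, the macrophage receptor of the family, was the lowest of the 5 members in every group. Its level was 0.581, 0.511 and 0.572 FPKM in wild-type cells with vehicle and 0.632, 0.666 and 0.578 FPKM with pyridostatin. In the libraries labelled PARP3-/- it was 0.692, 0.672 and 0.689 FPKM with vehicle and 0.788, 0.903 and 0.491 FPKM with pyridostatin. The last group held both the highest and the lowest of the 12 values. In exact two-sided permutation tests within treatments or genotypes (400 arrangements, smallest possible p = 0.005), the libraries labelled PARP3-/- were higher by 0.116 FPKM on average (p = 0.09, 0.18 adjusted for both tests) and pyridostatin libraries by 0.057 FPKM (p = 0.385). Without the third pyridostatin library labelled PARP3-/-, the differences were 0.175 FPKM (exact permutation p = 0.005, the smallest possible) and 0.116 FPKM (exact permutation p = 0.01), so the side of the threshold rested on this 1 library.

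**Figure D4:**
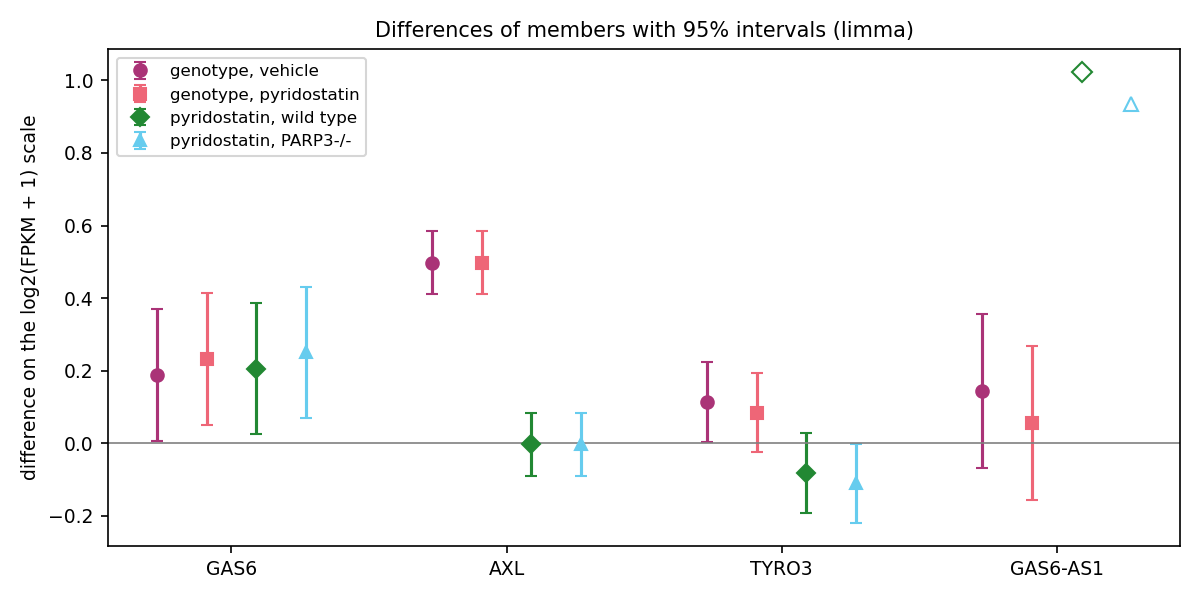
Differences between groups on the log2(FPKM + 1) scale with 95% intervals from limma (bars) for the 4 members tested, in 2 genotype and 2 pyridostatin comparisons. AXL lies at 0.50 in both genotype comparisons and at -0.003 in both pyridostatin comparisons, while GAS6-AS1 under pyridostatin (open symbols, 1.02 and 0.94) has no interval because it was chosen by that difference.

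In FPKM, a scale per length of transcript, the order with vehicle was AXL, TYRO3, GAS6, GAS6-AS1 and MERTK in both genotypes, and no neighbours in that order overlapped. With pyridostatin GAS6-AS1 stood second, overlapping TYRO3 in wild-type cells and GAS6 in the libraries labelled PARP3-/-. AXL made up 93.1% ± 0.2 of the summed level of the 3 receptors in wild-type cells with vehicle and 94.8% ± 0.4 in the pyridostatin libraries labelled PARP3-/- (SD, n = 3). AXL exceeded its ligand gene GAS6 by 20.8 ± 2.9 times in wild-type cells with vehicle and by 17.1 ± 1.6 times with pyridostatin, and by 24.8 ± 2.8 and 19.8 ± 0.8 times in the libraries labelled PARP3-/-.

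Among 58 receptor tyrosine kinase genes, AXL had the second highest mean level. The 5 highest were EPHA2 (74.5 FPKM), AXL (71.4), MET (60.2), FGFR1 (50.5) and EGFR (30.6), and 20 of the 58 reached a mean of 1 FPKM. TYRO3 ranked 16 at 3.85 FPKM, between MST1R (4.07) and EPHB6 (2.00), and MERTK ranked 25 at 0.648, between EPHA10 (0.656) and INSR (0.605). The ranges of TYRO3 and MST1R overlapped, as did those of MERTK and both its neighbours and those of AXL, EPHA2 and MET. In the averaged genotype test 6 of the 20 rose and 4 fell relative to wild type, beside 19.1% of all genes called, and AXL had the largest upward difference of the 20, next to EPHB2 (0.49). The median difference was 0.05 for these 20 genes and 0.01 for all genes tested. With pyridostatin 4 of the 20 rose on average and none fell, beside 13.9% of all genes called, and AXL ranked 15.

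**Figure D5:**
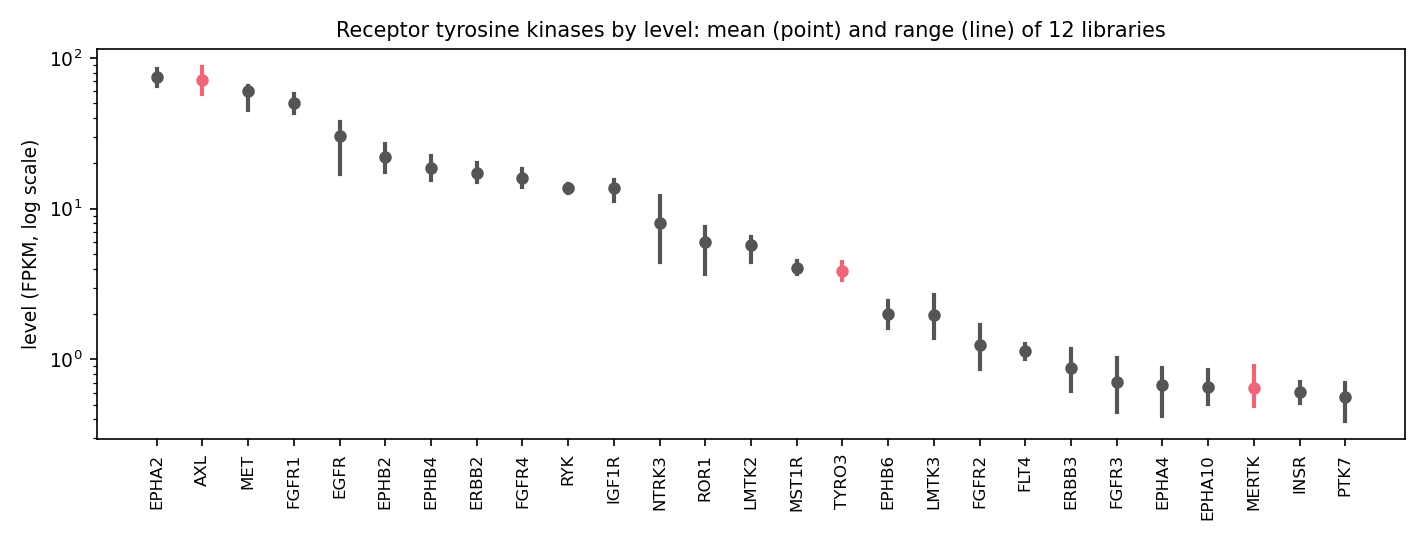
Mean level (points) and range over 12 libraries (lines) in FPKM, on a log axis, of the 27 highest receptor tyrosine kinase genes, with AXL, TYRO3 and MERTK in red. AXL stands second at 71.4 FPKM, TYRO3 at rank 16 and MERTK at rank 25.

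The TAM ligand genes PROS1, TUB and LGALS3 were on average expressed above GAS6. PROS1, protein S, which activates TYRO3 and MERTK, averaged 7.12, 7.12, 7.58 and 6.89 FPKM in wild-type vehicle, PARP3-/- vehicle, wild-type pyridostatin and PARP3-/- pyridostatin libraries and passed no test. PROS1 over GAS6 was 2.5 ± 0.26 in wild-type cells with vehicle and 1.63 ± 0.07 in the pyridostatin libraries labelled PARP3-/-. TUB, tubby, averaged 4.69 FPKM and passed no test, and TULP1 was listed at 0. LGALS3, galectin 3, a reported MERTK ligand, was higher in the libraries labelled PARP3-/- by 0.58 with either treatment (limma, adjusted p = 0.000156 with vehicle and 0.000159 with pyridostatin). Of the 4 ligands tested, 2 of 4 (LGALS3 and GAS6) were thus higher in the averaged genotype test (19.1% of all genes called) and 1 of 4 (GAS6) in the averaged pyridostatin test (13.9%).

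The enzymes that make GAS6 active by gamma-carboxylation, and those that reduce vitamin K for it, were all expressed. The carboxylase GGCX averaged 5.01 FPKM and the vitamin K epoxide reductase VKORC1 66.4 FPKM, and neither passed a test. VKORC1L1, a paralogue of VKORC1, rose with pyridostatin by 0.22 in wild-type cells (limma, adjusted p = 0.0299, up to 0.228 over the alternatives) and 0.27 in the other genotype (0.00951). NQO1, a quinone reductase, fell by 0.29 with vehicle and by 0.32 with pyridostatin in the libraries labelled PARP3-/- against wild type (adjusted p = 0.0015 and 0.000655). In the averaged tests 1 of the 5 genes rose with pyridostatin (13.9% of all genes called) and 1 was lower by genotype (19.1% of all genes called). The sheddases that release the AXL ectodomain, ADAM10 at 49.6 and ADAM17 at 17.8 FPKM, passed no test.

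Among 15 tested genes of receptor adaptors and proximal signalling, 3 were higher and 3 lower in the averaged genotype test, beside 19.1% of all genes called. SOCS3, a feedback inhibitor of cytokine signalling, rose from 10.9 ± 0.3 to 17.2 ± 0.3 FPKM with vehicle and from 11.1 ± 0.7 to 18.4 ± 0.9 FPKM with pyridostatin between wild-type libraries and those labelled PARP3-/- (log2 difference 0.62 and 0.67). The exchange factor VAV2 (0.23 in the averaged test) and the phospholipase PLCG1 (0.21) were also higher, and VAV3 (-0.20) was lower. With pyridostatin PIK3R2, a regulatory subunit of PI3 kinase, rose in PARP3-/- cells by 0.29 (limma, adjusted p = 0.0111), and VAV2 by 0.10 on average (0.0486, lost in 15 of 19 alternatives). The pyridostatin test in PARP3-/- cells called 5.56% of all genes and the averaged one 13.9%.

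Among 9 tested genes of downstream kinases, STATs and interferon receptor chains, 2 were higher and 1 lower in the averaged genotype test (19.1% of all genes called). STAT3, a transcription factor downstream of cytokine receptors, was higher in the libraries labelled PARP3-/- by 0.28 with vehicle and 0.26 with pyridostatin, and IFNAR2 by 0.23 in the averaged test. With pyridostatin STAT3 (0.15) and MAPK3 (0.22) rose on average, beside 13.9% of all genes called. AKT1 fell by 0.09 on average, a call lost in 8 of 19 alternatives. Of 9 genes for the uptake of apoptotic cells, MFGE8, a bridging protein to integrins, was higher by 0.48 with vehicle and 0.59 with pyridostatin in the libraries labelled PARP3-/-, CRK was higher by 0.14 on average (a call lost in 13 of 19 alternatives) and ELMO1 was lower by 0.28, beside 19.1% of all genes called in the averaged test.

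Of 13 tested genes listed as regulators of AXL transcription, 3 were above and 1 below wild type in the averaged genotype test, beside 19.1% of all genes called. The AP-1 subunits FOSL1 (51.7 to 68.7 FPKM with vehicle, log2 difference 0.40) and JUN (36.5 to 48.1 FPKM, 0.39) were higher with vehicle, and with pyridostatin by 0.49 and 0.35. TWIST1 was higher by 0.28 and TEAD2 lower by 0.21 on average. TWIST1 (0.22) and TEAD2 (0.14) rose with pyridostatin on average, beside 13.9% of all genes called, the second call being lost in 14 of 19 alternatives. The median genotype difference of the 13 genes was 0.02, beside 0.01 for all genes tested. Of 14 Gla domain genes 3 were tested and of 8 growth arrest-specific genes 5, and among those tested GAS6 was the 1 gene past the threshold in the averaged tests. Those tests called 19.1% (genotype) and 13.9% (pyridostatin) of all genes. The GAS6 calls changed in 9 (genotype) and 7 (pyridostatin) of 18 alternatives.

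The genes whose levels followed GAS6-AS1 most closely over the 12 libraries were ADCK3 (Pearson's r = 0.982), FDXR (0.982), TRIAP1 (0.979), TRIP10 (0.978) and SESN2 (0.978). FDXR, ferredoxin reductase, averaged 33.8 FPKM in wild-type vehicle and 67.0 in wild-type pyridostatin libraries, and SESN2, sestrin 2, 4.09 and 7.77 FPKM. For GAS6 itself r was 0.753, for AXL 0.089 and for TYRO3 -0.553. Among the genes that followed AXL most closely were COL6A1 (0.995), PXDN (0.993), EPHB2 (0.993) and PODXL (0.992), and COL6A1, a collagen chain, averaged 9.32 FPKM in wild-type vehicle and 21.1 in PARP3-/- vehicle libraries. The points share the 4 groups, so these values describe how a gene follows treatment or genotype.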

How the data were processed

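Total RNA of 12 A549 cultures was sequenced as stranded mRNA libraries with single 75 base reads. The authors deposited 1 table of FPKM values per gene, and the submitters' processing notes name bcl2fastq 2.16, STAR 2.5, Cufflinks, and the builds mm9 and hg19 without a role. Counts were not used here. FPKM values were taken as log2(FPKM + 1), genes averaging 1 FPKM or more were kept, and 1 limma 3.58.1 model (R 4.3.3) of the 4 groups with a trended prior gave differences and Benjamini-Hochberg adjusted p-values over 11881 genes, with a threshold of 0.05. This replaces a count test, since FPKM are not counts; the method was tested on simulated data. MERTK, under the filter, was tested by permutation. The limma p-values set each difference against the spread between these libraries within groups.

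The members and gene lists were chosen with earlier results of these data known. Genes named were the members, up to 4 per list and contrast by smallest p, up to 5 antisense RNAs per pyridostatin contrast by size, the 5 genes most correlated with GAS6-AS1 or AXL, and the neighbours of GAS6. For the receptor kinases these were the 5 highest and the genes ranked beside each TAM receptor. EPHB2 there, the markers CDH1, EPCAM, CD68, CD14 and COL1A1, and genes named as passing no test were chosen after their values were seen. Sequences came from GENCODE release 29 and RefSeq (GRCh38), and symbols were matched for all 5 members. Figures were drawn with matplotlib 3.10.9. Values of 2 genes that these rules name are not reported here.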

Additional observations from a re-analysis of the deposited data

How the results depend on the processing

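AXL kept its genotype calls under every alternative run (quantile normalization, a shift to equal medians, a pseudocount of 0.1, no filter or a 5 FPKM minimum, a prior without trend, only the libraries compared, the replicate block and each library left out), with adjusted p from 4.37e-07 to 0.00204. Settings that changed a value or call of a member are given below, and their causes were not tested. GAS6-AS1 with pyridostatin moved to 1.38, 1.23 and 1.30 (wild type, PARP3-/-, average) with a pseudocount of 0.1. The averaged GAS6 differences fell to 0.163 (genotype) and 0.185 (pyridostatin) with quantile normalization and to 0.176 (genotype) with equal medians, and TYRO3 with pyridostatin passed at -0.136 and -0.123. AXL with pyridostatin turned to 0.038 in wild type, 0.034 in PARP3-/- and 0.036 on average with quantile normalization, and its interaction, -8.19e-05, to 0.012 with equal medians.

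With each library left out, ranges were 0.172 to 0.239 (GAS6, genotype), 0.190 to 0.254 (GAS6, pyridostatin), -0.0037 to 0.12 (GAS6 interaction), -0.047 to 0.123 (GAS6-AS1, genotype with pyridostatin), 0.082 to 0.115 (TYRO3, genotype) and -0.061 to 0.0042 (TYRO3 interaction). For AXL they were -0.0165 to 0.0135, -0.0318 to 0.0308 and -0.0172 to 0.0141 (pyridostatin in wild type, PARP3-/- and on average) and -0.0293 to 0.0333 (interaction). For MERTK they were 0.072 to 0.175 FPKM (genotype) and 0.013 to 0.116 FPKM (pyridostatin). The GAS6 genotype call was lost without wild-type vehicle 1, PARP3-/- vehicle 2 or 3, wild-type pyridostatin 1 or 2, or PARP3-/- pyridostatin 2 or 3 (adjusted p 0.0505 to 0.0722). Its pyridostatin call was lost without PARP3-/- vehicle 1 or 3, wild-type pyridostatin 1 or 3, or PARP3-/- pyridostatin 2 or 3 (0.0532 to 0.0677).

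Libraries with the same replicate number shared little of their deviations (correlations from -0.120 to 0.216). The labels do not say whether these numbers pair the samples. The replicate block left every member's call as it was (GAS6 averages 0.210 and 0.228, limma, adjusted p 0.0216 for both). Of 60 differences named for other genes, 38 kept their call under every alternative and none changed direction. When only the libraries compared were fitted, the counts of genes called went from 1118 to 532 and from 1297 to 1623 (genotype, vehicle and pyridostatin) and from 495 to 65 and from 661 to 881 (pyridostatin, wild type and PARP3-/-). With 1 library left out these 4 counts ranged from 746 to 1644, 806 to 2298, 178 to 706 and 254 to 1559. GAS6, GAS6-AS1 and TYRO3 gave no value at a 5 FPKM minimum. MERTK was under the 1 FPKM filter, and the part of counting error in its spread was not tested.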
